A study of Mus musculus with 18 samples.

Results

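Heat shock chaperones were followed in innate lymphocytes and macrophages sorted from the livers of mice with colon cancer metastases. The 10 genes were chosen by name, with earlier results of these data known, and comprised Hspa1a, Hspa1b, Hspa8, Hsph1, Dnajb1, Dnaja1, Hsp90aa1, Hsp90ab1, Hspd1 and Hspe1. All 10 were present among the 54309 gene rows of the lymphocyte table and the 13759 gene rows of the macrophage table, and all 10 passed the low-count filter in both. Female C57BL/6J mice, 8 to 10 weeks old, had received MC38 mouse colon adenocarcinoma cells by injection into the spleen, and livers were taken 20 days later. Liver free of metastases (MFL) and the metastases themselves (LM) were processed separately, and every group in both tables came from tumor-bearing mice with no further allele or agent named.

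The lymphocyte experiment held 12 libraries in 4 groups of 3, all from lineage-negative CD45+ NKp46+ cells. NK cells of MFL, and the CD49a- NK cells of LM, were sorted as CD49a- CD49b+. ILC1 of MFL were CD49a+ CD49b-, and CD49a+ NK cells, sorted from LM only, were CD49a+ CD49b+. The LM CD49a+ libraries carry ILC1 in their titles, but their population label is that of CD49a+ NK cells, and this label was used. Each lymphocyte library came from 6 to 8 pooled samples, so a library is a pool and not 1 mouse. The paper states that the pools were obtained in 3 independent sortings. Libraries of different groups may therefore share a sorting or mice, and the labels do not say which. The macrophage experiment held 3 libraries of F4/80 hi and 3 of F4/80 int metastasis-associated macrophages (MAMs), CD45+ CD11b+ cells from LM, for which pooling is not given in the sources used here. The labels write the second group as F4/80low. LM had been digested with Liberase for 30 minutes at 37 °C whereas MFL had been smashed and filtered, so metastasis and enzymatic digestion cannot be told apart in any comparison of LM with MFL.

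Heat shock proteins are chaperones that bind unfolded proteins, hold them soluble and help them fold. The Hsp70 proteins work in cycles with Hsp40 partners, which bring the client, and with Hsp110 proteins, which exchange the nucleotide, and pass many signalling proteins on to Hsp90. In mitochondria, Hsp60 and its Hsp10 lid form a folding chamber. Constitutive members are abundant in unstressed cells, while inducible members are switched on by heat shock factor 1, which binds inverted repeats of GAA in promoters during heat, oxidative or other protein-damaging stress. In cells taken from solid tissue these genes can also respond to handling.

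The promoters of the inducible pair are shown first because this pair carried the largest differences between libraries. Hspa1a (chr17:35188166-35191132, minus strand, GRCm39) and Hspa1b (chr17:35175412-35178214, minus strand) are neighboring genes for near-identical inducible Hsp70. The 250 bases before the start of each, taken from the RefSeq promoter windows (GRCm38.p6), matched GRCm39 exactly at chr17:35191133-35191382 and chr17:35178215-35178464, minus strand, outside any annotated exon. Capitals mark matches to the 2-unit heat shock element letters GAANNTTC or TTCNNGAA.
Hspa1a promoter: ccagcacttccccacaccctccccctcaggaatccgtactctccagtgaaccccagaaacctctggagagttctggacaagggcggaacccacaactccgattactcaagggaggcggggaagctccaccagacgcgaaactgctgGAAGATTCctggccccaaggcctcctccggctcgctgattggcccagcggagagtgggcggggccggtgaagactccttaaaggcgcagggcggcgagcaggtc
Hspa1b promoter: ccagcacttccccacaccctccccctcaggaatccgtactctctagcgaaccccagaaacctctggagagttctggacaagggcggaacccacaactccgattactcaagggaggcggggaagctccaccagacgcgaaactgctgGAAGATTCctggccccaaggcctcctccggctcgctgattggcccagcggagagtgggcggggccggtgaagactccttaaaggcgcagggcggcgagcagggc
These 2 stretches carried the same letter at 247 of 250 positions, and in both the GAAGATTC match ended 96 bases before the start.

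Of the 10 members, 7 had a RefSeq promoter window, and 6 of these 7 held a 2-unit match. Each 2-unit form is its own reverse complement, so 1 strand covers both. Among all 27025 genes with a window, 14.5% held such a match in at least 1 window, and Hspd1, Hsph1 and Dnajb1 had 2 windows each and Dnaja1 had 3. The 3-unit form, which continues the alternation by 1 unit and was searched on both strands, was found for Hspd1 and Hspe1 and in 0.514% of all genes with a window. Hspd1 and Hspe1 are adjacent genes read in opposite directions, and 1 stretch lay in both their windows. The following matches fell within annotated exons (of Hspd1, of Hsph1 and of Dnaja1) and are given with short flanks only, again with capitals for the matching letters.
Hspd1 and Hspe1, chr1:55127212-55127241, plus strand: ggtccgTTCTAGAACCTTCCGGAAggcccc
Hsph1, chr5:149559816-149559845, minus strand: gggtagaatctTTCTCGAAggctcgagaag
Dnaja1, chr4:40722333-40722362, plus strand: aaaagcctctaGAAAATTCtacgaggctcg
The matches in the Hspd1 and Hspe1 stretch overlap, so it holds 3 matches of the 2-unit forms and 2 of the 3-unit forms. Dnajb1, whose product is the main Hsp40 partner of inducible Hsp70, had no match in its 2 windows. Letter matches were counted as letters only, and neither binding nor chromatin was measured.

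Summed over both copies, Hspa1a and Hspa1b were higher in every LM lymphocyte library than in every MFL library, by about an order of magnitude between group means. Values are library-scaled counts (CPM), set between libraries by the trimmed mean of M-values. MFL NK libraries 1, 2 and 3 held 122, 139.6 and 114 CPM of the summed pair, and ILC1 held 276, 109.6 and 35.3 CPM. In LM the CD49a- NK cells held 2166, 2106 and 922 CPM and the CD49a+ ones 843, 2505 and 679 CPM. The lowest LM library, 679 CPM, was above the highest MFL library, 276 CPM, and ILC1 library 1 stood above the other 5 MFL libraries.

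The 2 copies are hard to separate by sequence. Of the 2937 distinct words of 31 bases in the Hspa1a transcript, 1873, or 63.8%, are also in the Hspa1b transcript, so reads could be divided between them by the quantification program. Hspa1b made up 57.9% to 75.1% of the pair in the 12 lymphocyte libraries. Values for each copy are therefore uncertain to that extent, and each comparison was also made on the sum.

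In LM CD49a- NK cells, Hspa1b was 607 to 1260.1 CPM against 66.0 to 91.4 CPM in MFL NK cells, and Hspa1a was 315 to 906 CPM against 43.3 to 48.2 CPM. Hspa1b was 13.1-fold higher (log2 fold change 3.72, SE 0.58, adjusted p = 0.0201, edgeR quasi-likelihood test with Benjamini-Hochberg adjustment over 13594 genes) and Hspa1a was 14.9-fold higher (log2 fold change 3.9, SE 0.70, adjusted p = 0.0675). These were the 2 members of 10 past the threshold of an adjusted p under 0.1, at which 0.0662% of all genes tested were called higher. For the sum, the log2 fold change was 3.79 (SE 0.62, adjusted p = 0.0351). The call on the sum was lost without MFL NK library 1, 2 or 3 or LM CD49a- library 1, with log2 fold changes of 3.59 to 3.87 and adjusted p of 0.103 to 0.291. The same omissions left 0 members called without MFL NK library 1 or 3 and 1 member called without MFL NK library 2 or LM CD49a- library 1. The share of all genes called in those fits is not given here.

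LM CD49a+ NK cells showed the same members called. Hspa1b was 513, 1652 and 454 CPM and Hspa1a 330.3, 853 and 225 CPM in libraries 1, 2 and 3, so library 2 was the highest for both copies. Against MFL NK cells, Hspa1b was 11.1-fold higher (log2 fold change 3.47, SE 0.57, adjusted p = 0.00858) and Hspa1a 10.1-fold higher (log2 fold change 3.34, SE 0.69, adjusted p = 0.0385), where 0.427% of all genes were called higher. Hspa1b kept its call without any single library. Hspa1a lost it without MFL NK library 1, 2 or 3 or LM CD49a+ library 2, at adjusted p of 0.106 to 0.224, which left 1 member called. For those fits too, the share of all genes called is not given here. The sum had a log2 fold change of 3.42 (SE 0.61, adjusted p = 0.018), and 3.40 with an adjusted p of 0.118 without MFL NK library 1.

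Compared with ILC1, which also carry CD49a, the CD49a+ NK cells of LM had more of the pair, and 4 members were called higher, where 2.29% of all genes were. Hspa1b was 9.70-fold higher (log2 fold change 3.28, SE 0.57, adjusted p = 0.00297) and Hspa1a 9.34-fold higher (3.22, SE 0.68, adjusted p = 0.0142). The third was Hsp90ab1 and the fourth Hspd1, described with their families. Neither LM NK subset differed detectably from the other in the pair (log2 fold change of the sum −0.37, SE 0.55, adjusted p = 0.87), nor did the MFL populations (0.16, SE 0.55, adjusted p = 1). The difference between ILC1 and NK cells in MFL turned to −0.79 without ILC1 library 1, the highest of that group, so its direction is not fixed by these libraries.

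**Figure D1:**
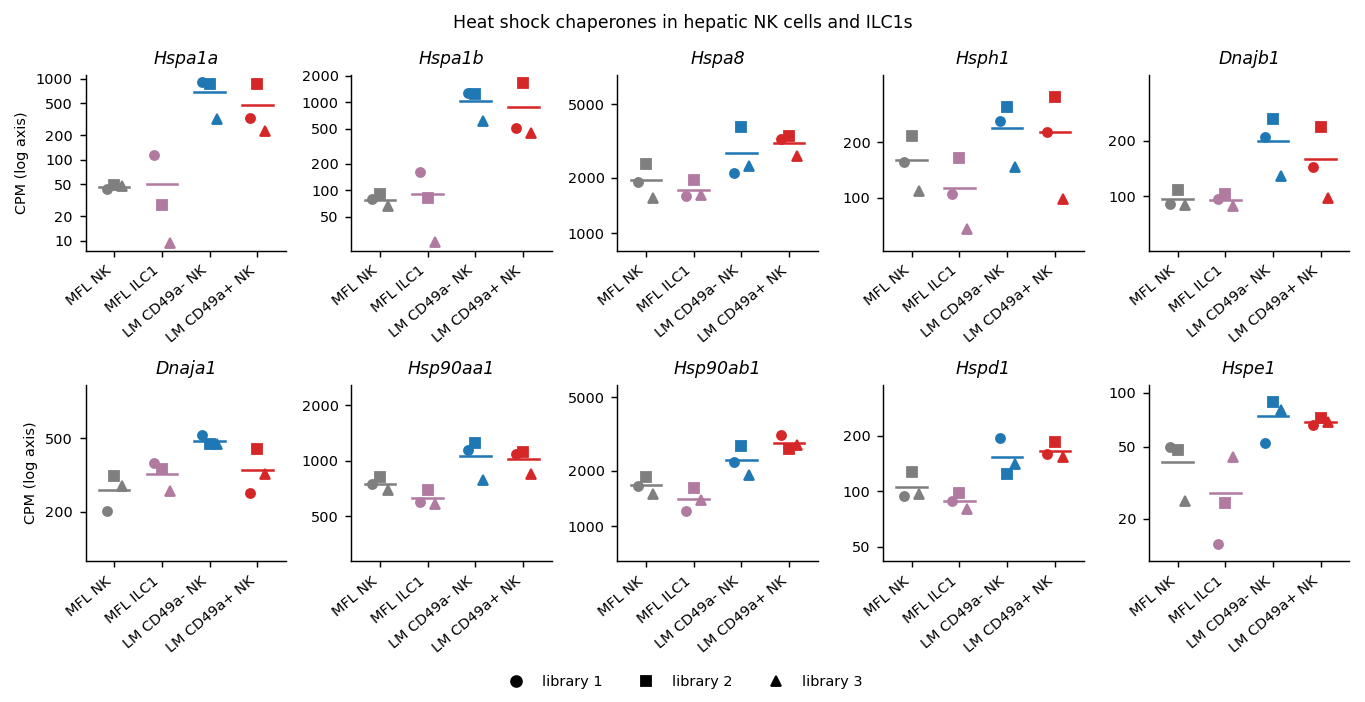
CPM of each chaperone gene (log axis, each panel with its own range) in the 3 libraries of each lymphocyte group, with the bar at the group mean. The Hspa1a and Hspa1b panels separate LM from MFL without overlap, the lowest LM library holding 225 CPM of Hspa1a against at most 114 CPM in MFL, while most other panels show smaller shifts.

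The constitutive cytosolic Hsp70, Hspa8 (chr9:40711630-40731039, plus strand), which clears clathrin coats and folds newly made proteins, was already abundant in MFL. MFL NK cells held 1887, 2373 and 1548 CPM and LM CD49a- NK cells 2126, 3777 and 2321 CPM, so these groups overlapped. LM CD49a+ NK cells held 3246, 3383 and 2620 CPM, above all MFL NK libraries and above the ILC1 libraries at 1602, 1954 and 1612 CPM. The difference from MFL NK cells was 0.50 (SE 0.26, adjusted p = 0.763) for CD49a- and 0.67 (SE 0.26, adjusted p = 0.412) for CD49a+ NK cells on the log2 scale, and neither was called by edgeR. Hspa8 was 1.79-fold higher in LM CD49a+ NK cells than in MFL ILC1, at an adjusted p of 0.12 by edgeR, and was called there without the filter (adjusted p = 0.00861), by DESeq2 (0.0127), by limma-voom (0.0409), with the replicate block (0.0623), in a fit of these 2 groups alone (0.0572), without both LM libraries numbered 2 (0.0751) and without any 1 of the LM CD49a- libraries (0.0378 to 0.0982). Leaving out both LM libraries numbered 2 was chosen after seeing the data.

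Hsph1 (chr5:149537636-149560156, minus strand) encodes the Hsp110 that recharges Hsp70 with nucleotide. It was 156, 217 and 109 CPM in NK cells of MFL, 258, 311 and 147 CPM in LM CD49a- NK cells and 227, 353 and 97.8 CPM in LM CD49a+ NK cells. MFL ILC1 held 105, 163 and 67.8 CPM. All groups overlapped, the widest spread being that of LM CD49a+ NK cells, and edgeR with the filter did not call the gene (log2 fold changes 0.57, 0.49 and 1.01 for CD49a- and CD49a+ NK cells against MFL NK cells and CD49a+ NK cells against ILC1, adjusted p 0.911, 0.895 and 0.277). Against ILC1 it was called without the filter (adjusted p = 0.0211), with the replicate block (0.0411) and without both LM libraries numbered 3 (0.097). That last omission was chosen after seeing the data and removed the lowest library of each LM group for this gene.

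The Hsp40 genes were not called by edgeR with the low-count filter in any comparison of 2 lymphocyte groups. Dnajb1 (chr8:84334811-84339820, plus strand) was 91.2, 108 and 89.9 CPM in NK cells of MFL, and ILC1 had 97.1, 103 and 88.7 CPM. LM CD49a- NK cells held 209.9, 262 and 128 CPM, all above MFL, and LM CD49a+ NK cells 144, 239 and 98.2 CPM, where library 3 fell within the MFL range. Neither difference from MFL NK cells was called in that fit (2.08-fold, adjusted p = 0.501, and 1.66-fold, adjusted p = 0.456). For LM CD49a- NK cells Dnajb1 was called by edgeR without the filter (adjusted p = 0.0863) and without both LM libraries numbered 3 (adjusted p = 0.0468), and without the latter also for LM CD49a+ NK cells against ILC1 (adjusted p = 0.0779). The omission of libraries 3 was chosen after seeing the data and removed the lowest library of each LM group for Dnajb1.

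Dnaja1 (chr4:40722056-40737149, plus strand), a farnesylated Hsp40 of the cytosol, was 523, 468 and 467 CPM in LM CD49a- NK cells, above all libraries of the other 3 groups. LM CD49a+ NK cells held 254, 438 and 321 CPM, NK cells of MFL 201, 314 and 276 CPM, and ILC1 369.7, 341 and 259 CPM, and these overlapped. The log2 fold change was −0.53 between the LM subsets (SE 0.24, adjusted p = 0.422) and 0.88 between LM CD49a- and MFL NK cells (SE 0.24, adjusted p = 0.383), and neither was called by edgeR with the filter. The second was called by edgeR without the filter (adjusted p = 0.0796) and by DESeq2 (adjusted p = 0.0327). Of all genes, 4.10% had every LM CD49a+ library below every CD49a- library, and Dnaja1 was the 1 member of 10 that did.

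Among the cytosolic Hsp90 genes, the constitutive Hsp90ab1 (chr17:45878552-45891949, minus strand) separated LM from MFL. It was 1656, 1854 and 1493 CPM in NK cells of MFL, and ILC1 had 1209.7, 1604 and 1391 CPM, against 2236, 2737 and 1899 CPM in LM CD49a- and 3119, 2639.9 and 2752 CPM in LM CD49a+ NK cells. Every LM library was above every MFL library. Hsp90ab1 was 2.02-fold higher in LM CD49a+ NK cells than in MFL ILC1 (log2 fold change 1.02, SE 0.22, adjusted p = 0.0169), and the call was lost without ILC1 library 1 (0.92, adjusted p = 0.118). Against MFL NK cells the differences were 1.37-fold for CD49a- (adjusted p = 0.747) and 1.70-fold for CD49a+ NK cells (adjusted p = 0.232) by edgeR. The latter was called without the filter (adjusted p = 0.0391), by DESeq2 (0.00362), by limma-voom (0.0115) and without both LM libraries numbered 2 (0.0715). That last omission was chosen after seeing the data, and library 2 was the lowest of the LM CD49a+ libraries for this gene.

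The inducible Hsp90aa1 (chr12:110656842-110669166, minus strand) differed less from both MFL groups than Hsp90ab1 did in LM CD49a+ NK cells. It was 747, 816 and 693 CPM in NK cells of MFL, 601, 700.2 and 586 CPM in ILC1, 1153, 1258 and 784 CPM in LM CD49a- and 1089.7, 1120 and 851 CPM in LM CD49a+ NK cells. The LM CD49a+ libraries were all above MFL, while LM CD49a- library 3 was within the MFL NK range. The log2 fold changes from MFL NK cells were 0.50 (SE 0.22, adjusted p = 0.729) and 0.44 (SE 0.22, adjusted p = 0.558), and that of LM CD49a+ NK cells from ILC1 was 0.70 (SE 0.22, adjusted p = 0.14) by edgeR. The difference from ILC1 was called by DESeq2 (adjusted p = 0.0254), by limma-voom (0.0227), without LM CD49a- library 2 or 3 (0.0836 and 0.0769) and without both LM libraries numbered 3 (0.0508). That last omission was chosen after seeing the data and removed the lowest library of each LM group for this gene.

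The mitochondrial chamber genes lie next to each other, Hspd1 (Hsp60) at chr1:55116989-55171038 on the minus strand and Hspe1 (Hsp10) at chr1:55127260-55130476 on the plus strand. Hspd1 was 93.7, 126 and 96.0 CPM in NK cells of MFL, 88.9, 97.5 and 80.5 CPM in ILC1, 195, 124 and 141 CPM in LM CD49a- and 158, 185 and 153 CPM in LM CD49a+ NK cells. The latter were above all MFL libraries, and Hspd1 was 1.86-fold higher in them than in ILC1 (log2 fold change 0.90, SE 0.24, adjusted p = 0.0653). That call was lost without any 1 of the 3 ILC1 libraries, the 3 LM CD49a+ libraries or MFL NK library 2 or 3, at adjusted p of 0.110 to 0.312. Hspe1 was 50.1, 48.2 and 24.9 CPM in NK cells of MFL, 14.5, 24.6 and 43.9 CPM in ILC1, 52.7, 88.4 and 80.5 CPM in LM CD49a- and 66.0, 72.6 and 68.8 CPM in LM CD49a+ NK cells. Every LM library was above every MFL library for Hspe1, yet the 2.50-fold difference between LM CD49a+ NK cells and ILC1 had an SE of 0.42 on the log2 scale and was not called by edgeR (adjusted p = 0.142), whereas it was by DESeq2 (0.0536) and, in edgeR, without ILC1 library 3 (0.0785). The annotated Hspd1 gene spans Hspe1 on the opposite strand, and the library kit keeps strand.

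**Figure D2:**
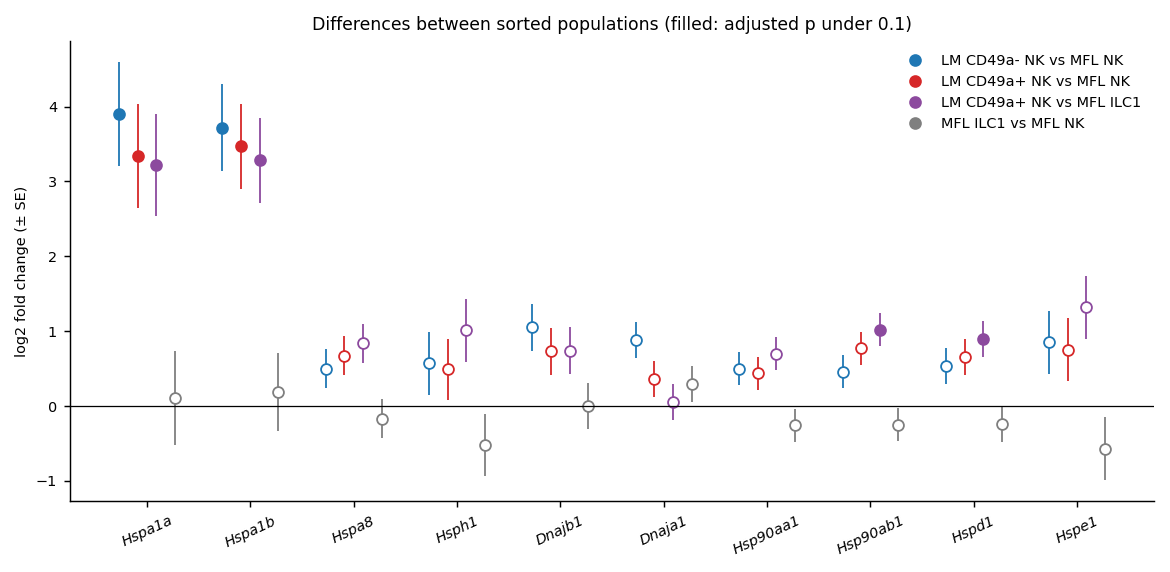
Fitted log2 fold change with its standard error for each chaperone gene in 4 comparisons of lymphocyte groups, filled where the adjusted p was under 0.1. Hspa1a and Hspa1b lie between 3.22 and 3.9 in the 3 comparisons of LM with MFL, the other members at or below 1.32, and the MFL ILC1 against MFL NK points lie between −0.57 and 0.29.

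As a list, the members lay above the bulk of genes in LM. All 10 had a positive log2 fold change in each of the 3 comparisons of LM NK cells with an MFL group, where 44.6% (CD49a- against MFL NK), 47.8% (CD49a+ against MFL NK) and 46.6% (CD49a+ against ILC1) of all genes were positive. The members' median log2 fold change was 0.71, 0.70 and 0.95 in that order, and 0.56, 0.66 and 0.87 without the Hspa1 pair, against −0.09, −0.04 and −0.07 over all genes. All 3 LM libraries exceeded all 3 MFL libraries of the comparison for 6, 7 and 7 members, against 4.27%, 7.06% and 9.33% of all genes. These comparisons share groups, so they are not separate evidence. The list was chosen with earlier results of these data known, and all genes were not matched to it in level. The shares therefore describe the list and do not test it. Between the 2 LM subsets the median was −0.09 with 0 members called by edgeR, 1 of 10 at an unadjusted p under 0.05 and 0 by DESeq2, where 0.14% of all genes were called. Between MFL ILC1 and MFL NK cells it was −0.21 with 0 members called by edgeR, 0 at an unadjusted p under 0.05 and 0 by DESeq2, where 3.06% of all genes were called.

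Taking the mean of both LM groups against the mean of both MFL groups, 8 of the 10 members were called higher and 0 lower, where 2.01% of all genes were called higher. The MFL side includes ILC1, for which LM has no libraries. Against MFL NK cells alone, 2 members were called in each LM subset. Libraries of different groups may share a sorting or mice, and the fit treated them as independent. The sum of the pair was 11.5-fold higher (log2 fold change 3.52, SE 0.43, adjusted p = 0.000181). Hsp90ab1 was 1.67-fold higher (adjusted p = 0.0176), Hspd1 1.64-fold (adjusted p = 0.0378), Dnajb1 1.86-fold (adjusted p = 0.0446), Hsp90aa1 1.52-fold (adjusted p = 0.0622), Hspa8 1.59-fold (adjusted p = 0.0742) and Hspe1 2.12-fold (adjusted p = 0.0787). All 6 LM libraries exceeded all 6 MFL libraries for Hspa1a, Hspa1b, Hsp90ab1 and Hspe1, 4 of 10, against 0.434% of all genes. Hsph1 (1.73-fold, adjusted p = 0.21) and Dnaja1 (1.39-fold, adjusted p = 0.196) were not called by edgeR, and DESeq2 called Dnaja1 (adjusted p = 0.0927). Hsph1 was called by edgeR without the filter (adjusted p = 0.00537), with the replicate block (0.0215), without LM CD49a+ library 3 (0.0932) and without both LM libraries numbered 3 (0.0501). That last omission was chosen after seeing the data and removed the lowest Hsph1 library of each LM group. Hspa1a, Hspa1b and Hsp90ab1 kept their call in every alternative that was run, including each omitted library. The count of members called was 3 without MFL NK library 1 or 3, 4 without ILC1 library 1 or 3, and 5 without ILC1 library 2, LM CD49a+ library 1 or 2, or both LM libraries numbered 2. The share of all genes called in those fits is not given here, so these counts cannot be set against a background. The difference between the CD49a contrast in LM and that in MFL was called for 0 members by edgeR (1 of 10 at an unadjusted p under 0.05, 0 by DESeq2), where 1.03% of all genes were called.

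On a scale of CPM per kilobase of annotated exon, MFL NK cells held most Hsp90ab1 (a mean of 309), then Hspa8 (223) and Hsp90aa1 (163), and 28.1 of Hspa1b and 15.7 of Hspa1a. In LM CD49a- NK cells, Hspa1b reached a mean of 369.9 per kilobase, next to Hsp90ab1 at 424 and Hspa8 at 316, and Hspa1a a mean of 234. In LM CD49a+ NK cells the means were 311 for Hspa1b and 158 for Hspa1a, next to Hsp90ab1 at 525, Hspa8 at 355 and Hsp90aa1 at 222. The mean of Hspa1b there rests on library 2, at 589 per kilobase against 183 in library 1 and 162 in library 3. In MFL NK cells Hspa1b lay beside Dnaja1 (28.7) and Hspd1 (28.3). Exon lengths join all annotated isoforms, 8680 bases for Hspa8 against 2803 for Hspa1b, so the order of genes on this scale depends on them. In CPM, Hspa8 had a mean of 2741.5 against 1036.9 for Hspa1b in LM CD49a- NK cells. In MFL NK cells Hspa8 had a mean of 1936 CPM against 1667.6 for Hsp90ab1.

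Among other chaperones and their partners, 82 genes from 10 lists were tested in the lymphocytes (heat shock factors, further Hsp70 and Hsp110 genes, further Hsp40 genes, nucleotide exchange factors, Hsp90 co-chaperones, mitochondrial and endoplasmic reticulum chaperones, small heat shock proteins, the TRiC chaperonin and prefoldin). By edgeR, 0 of 82 were called in either LM subset against MFL NK cells, with 7 for CD49a- and 9 for CD49a+ NK cells at an unadjusted p under 0.05. DESeq2 called 0 in both, and limma-voom 0 and 2. Their median log2 fold changes were −0.05 for CD49a- and 0.18 for CD49a+ NK cells. Against ILC1, edgeR called 2 of 82 higher and 1 lower in LM CD49a+ NK cells, shares close to the 2.29% and 1.29% of all genes, and DESeq2 called 6 and limma-voom 4 in either direction. These were Dnajb4, an Hsp40 (102 ± 59.9 against 36.0 ± 10.3 CPM, SD, n = 3 each, log2 fold change 1.5, adjusted p = 0.0816), Cct2, a TRiC subunit (274 ± 11 against 151 ± 14.5 CPM, 0.86, adjusted p = 0.0431), and Dnajb9, an Hsp40 of the endoplasmic reticulum (27.6 ± 9.64 against 76.4 ± 16.6 CPM, −1.47, adjusted p = 0.0348). Cct2 was also the 1 of 82 called by edgeR in the mean of LM against the mean of MFL (0.59, adjusted p = 0.0577). DESeq2 called 7 there and limma-voom 4. All 8 TRiC genes had positive values in that comparison, as had 43.4% of all genes. In LM CD49a- against MFL NK cells, Cct8 (−0.24), Cct6a (−0.18) and Tcp1 (−0.09) were negative and the other TRiC genes positive. Within MFL, edgeR and DESeq2 each called 1 of 82 between ILC1 and NK cells and limma-voom 11. The shares of all genes called by DESeq2 and limma-voom in the comparisons with ILC1 and in the mean of LM against MFL are not given here. Counts by these tools there cannot be set against a background. The 1 called by edgeR was Dnajb4, lower in ILC1 (−1.56, adjusted p = 0.0699). Of the heat shock factor list, 0 of 4 genes were called in any lymphocyte comparison by edgeR, DESeq2 or limma-voom. In LM CD49a- against MFL NK cells 1 of 4 had an unadjusted p under 0.05 by edgeR, and in the other comparisons 0.

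A list of 18 immediate-early genes, which rise within minutes of tissue handling, was read beside the pair. Its summed level was 8918, 8089 and 7304 CPM in MFL NK libraries 1, 2 and 3, and ILC1 had 8982, 7493 and 5869 CPM. For LM CD49a- NK cells it was 16462, 6301 and 18027 CPM, and in LM CD49a+ NK cells 11993, 5719.6 and 15695 CPM. Libraries 2 of both LM groups held 2106 and 2505 CPM of the Hspa1 pair, at immediate-early sums within or below the MFL range. Libraries 3 held 922 and 679 CPM and had the highest immediate-early sums of their groups. Libraries 1 of LM CD49a- and LM CD49a+ NK cells held 2166 and 843 CPM of the pair, at immediate-early sums of 16462 and 11993 CPM. In the mean of LM against the mean of MFL, 4 of the 18 genes were called higher and 0 lower, where 2.01% of all genes were called higher. Their median log2 fold change was 0.68, against −0.1 over all genes. Without both LM libraries numbered 3, or without both numbered 2, the sum of the pair kept its call in LM against MFL. Both omissions were chosen after seeing the data. The part of tissue handling in the difference of the pair was not tested, and digestion cannot be told apart from metastasis.

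**Figure D3:**
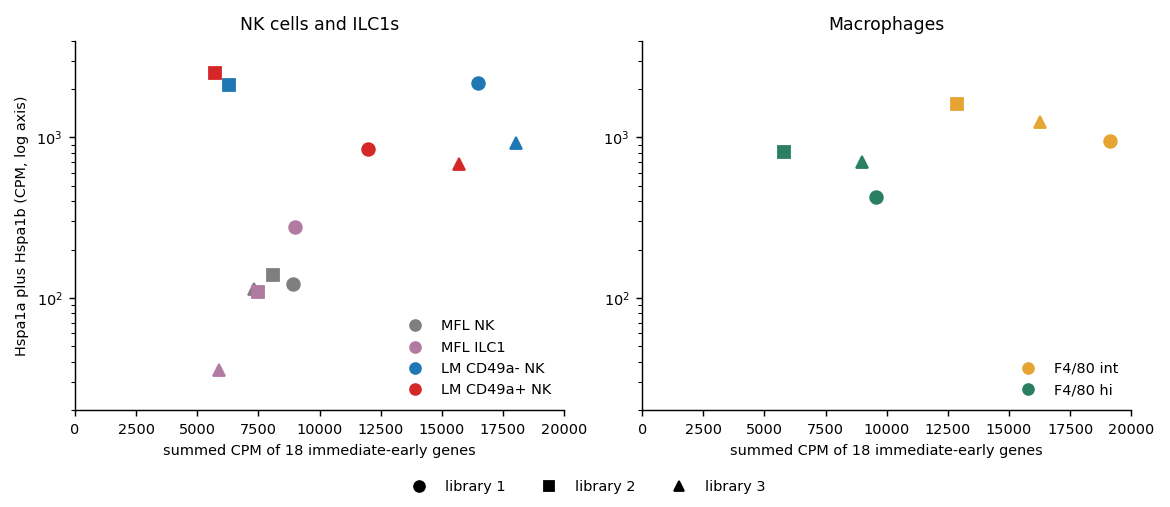
Summed Hspa1a and Hspa1b (CPM, log axis) against the summed level of 18 immediate-early genes (CPM) for each library, by group and library number. In the lymphocytes, LM libraries 2 have high Hspa1 levels, 2106 and 2505 CPM, at immediate-early sums below those of the other LM libraries. LM CD49a- library 1 has 2166 CPM of the pair at an immediate-early sum of 16462 CPM. In the macrophages the F4/80 int libraries are higher in both measures.

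Depth and cell markers also differed between groups. Totals were 8795721 to 14386834 counts in the lymphocytes and 21278959 to 32267015 in the MAMs. LM CD49a- libraries 1 and 2, which had the highest pair levels of their group, had the fewest genes with 10 or more counts (9885 and 9608, against 12601 in library 3 and 11651 to 13218 in MFL). The order was the other way in LM CD49a+ NK cells, where library 2, with the highest pair level, had 12093 such genes and libraries 1 and 3 had 10719 and 10511. Hepatocyte genes summed to 16.9 to 108 CPM in MFL and 0 to 13.1 CPM in LM, and all 4 Kupffer cell markers were at 0 in every LM lymphocyte library and summed to 0.367 to 5.15 CPM in MFL. NK cell markers summed to 4496 to 8397 CPM in CD49a- populations and 2998 to 4504 CPM in CD49a+ ones, and ILC1 markers to 1696 to 1763 CPM in ILC1, 186 to 279 CPM in LM CD49a+ and 26.5 to 68.5 CPM in CD49a- NK cells. T cell markers summed to 247 to 680.2 CPM in MFL ILC1 and at most 35.7 CPM elsewhere, and epithelial tumor markers to 59.2 to 95.0 CPM in ILC1, 23.7 to 51.4 CPM in LM CD49a+ and at most 4.4 CPM in CD49a- NK cells. Of the epithelial markers, Krt18, Krt19 and Cldn4 were at 0 in every ILC1 and LM CD49a+ library, and Krt8 in every LM CD49a+ library. These sums thus rest on Epcam and Cdh1, with Krt8 in ILC1, and do not by themselves show tumor cells. Proliferation genes summed to 1855 to 2801 CPM in LM CD49a+ NK cells and 877 to 1106 CPM in ILC1, the comparison in which Hsp90ab1 and Hspd1 were called, and to 1202 to 1715 CPM in NK cells of MFL and LM CD49a- NK cells. The part of these genes and of depth in the chaperone differences was not tested. In bulk libraries, more cells with a transcript and more transcript per cell cannot be told apart.

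In MAMs the pair differed between the 2 populations in the tumor. Hspa1a was 226, 360.5 and 351 CPM in F4/80 hi MAMs against 458, 726 and 616 CPM in F4/80 int MAMs, and Hspa1b was 201, 451 and 354 CPM against 488, 880.1 and 638 CPM. Every F4/80 hi library was below every F4/80 int library for both copies. Hspa1a fell by 0.94 on the log2 scale (SE 0.21, adjusted p = 0.00725) and Hspa1b by 1.00 (SE 0.30, adjusted p = 0.0252), and both calls held without any single library. The sum was 427, 811 and 705 CPM against 946, 1606 and 1254 CPM, a 1.96-fold difference (adjusted p = 0.0147). Of all 13759 genes, 27.1% were called lower in F4/80 hi MAMs and 28.6% had every F4/80 hi library below every F4/80 int library, so 2 of 10 members lower is a share close to the background.

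Of the other 8 members, Hspd1 was called, and higher. It was 214, 319 and 194 CPM in F4/80 hi and 158, 196 and 168 CPM in F4/80 int MAMs, groups that overlapped, and was 1.39-fold higher (log2 fold change 0.48, SE 0.18, adjusted p = 0.0608, where 27.8% of all genes were called higher). The call was lost without F4/80 int library 1 or 3 or F4/80 hi library 2, at adjusted p of 0.138 to 0.17. Its partner Hspe1 was 69.6, 94.2 and 58.0 CPM against 69.8, 74.6 and 68.0 CPM (log2 fold change 0.06, SE 0.16, adjusted p = 0.777).

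The constitutive Hspa8 was at 2721, 3641 and 2961 CPM in F4/80 hi and 3397, 4357 and 3767 CPM in F4/80 int MAMs. These overlapped, and the 1.24-fold lower level in F4/80 hi MAMs was not called (adjusted p = 0.115). Hsp90ab1 was 1521, 1952 and 1408 CPM against 1772, 1982 and 1838 CPM (log2 fold change −0.20, SE 0.13, adjusted p = 0.262). Hsp90aa1, Hsph1, Dnajb1 and Dnaja1 had log2 fold changes of −0.26 to −0.15 with adjusted p of 0.32 to 0.596. Their F4/80 hi ranges, 341 to 529, 76.0 to 146, 53.9 to 78.5 and 169 to 260.03 CPM in that order, overlapped the F4/80 int ranges of 426 to 509, 82.9 to 156, 64.0 to 81.9 and 192 to 286 CPM. Without F4/80 hi library 2, which was the highest of its group for all 10 members, 7 members were called in place of 3, Hspa1a, Hspa1b, Hspa8, Hsp90aa1, Hsp90ab1, Dnajb1 and Dnaja1, all lower. With all libraries, 27.1% of all genes were called lower. The share without this library is not given here, so the 7 cannot be set against a background.

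**Figure D4:**
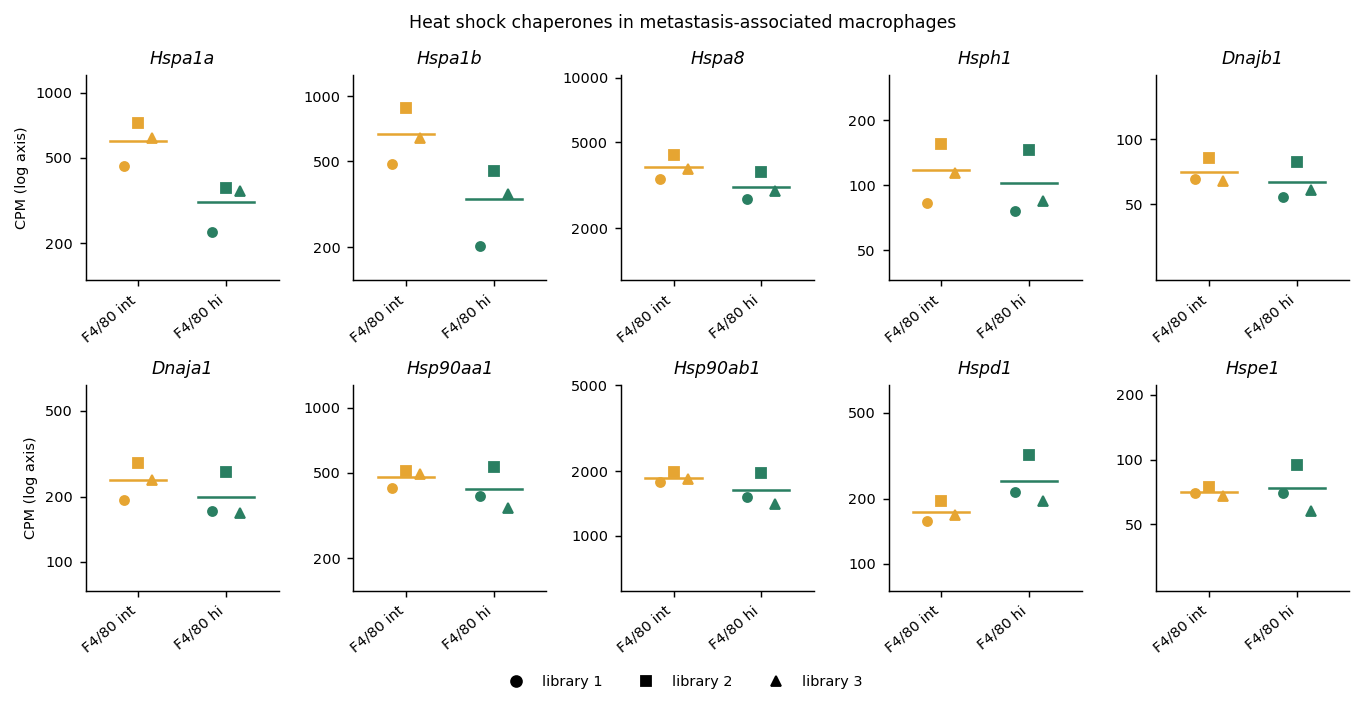
CPM of each chaperone gene (log axis, each panel with its own range) in the 3 F4/80 int and 3 F4/80 hi MAM libraries, with the bar at the group mean. The groups are apart for Hspa1a and Hspa1b, at most 360.5 against at least 458 CPM for Hspa1a, and overlap for the other 8 genes, and library 2 is the highest point in every group.

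Beside the pair, the 18 immediate-early genes summed to 9553, 5818 and 8995 CPM in F4/80 hi and 19114, 12862 and 16276 CPM in F4/80 int MAMs, and 14 of 18 were called lower and 0 higher in F4/80 hi MAMs. In each group library 2 had the lowest immediate-early sum and the highest Hspa1 sum. Dendritic cell markers summed to 119 to 204 CPM in F4/80 int and 6.59 to 8.01 CPM in F4/80 hi MAMs, classical monocyte markers to 1503 to 1530 and 431 to 541 CPM, and macrophage markers to 4842 to 5596 and 12855 to 16043 CPM. Proliferation genes summed to 1881 to 2090.0 CPM in F4/80 int and 3241 to 4034 CPM in F4/80 hi MAMs. The 2 epithelial markers in the table summed to 197 to 281 CPM in F4/80 int and 8.3 to 11.8 CPM in F4/80 hi MAMs. The part of these genes in the difference was not tested. Of 86 other chaperone genes, 26 were called higher and 10 lower in F4/80 hi MAMs, where 27.8% and 27.1% of all genes were. The 5 with the largest change were Serpinh1, the collagen chaperone (58.2 ± 41.9 against 9.39 ± 1.56 CPM, SD, n = 3 each, log2 fold change 2.63, adjusted p = 0.00181), the small heat shock genes Hspb8 (2.42, adjusted p = 0.0026) and Hspb6 (1.01, adjusted p = 0.00288), Bag2, an Hsp70 co-chaperone (1.30, adjusted p = 0.00137), and Hspa1l, the neighbor of Hspa1a (0.734 ± 0.103 against 1.67 ± 0.423 CPM, −1.17, adjusted p = 0.0166). The transcripts of Hspa1a and Hspa1l share 356 words of 31 bases, 12.1% of those of Hspa1a. The MAM libraries were made from poly(A) RNA and the lymphocyte libraries from total RNA, so levels were not compared between the 2 experiments.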

How the data were processed

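RNA-seq tables of 18 libraries were analysed, 12 of sorted NK cells and ILC1 and 6 of sorted MAMs, each table on its own. Per the methods and labels, the authors trimmed reads with Trim Galore, quantified them against GRCm39 transcripts with Salmon (version 1.5.0 for lymphocytes, 1.10.0 for MAMs) and summed transcripts to genes. The deposited values are estimated counts, written as whole numbers and not normalized. The lymphocyte libraries came from a stranded total RNA kit and the MAM libraries from a stranded poly(A) kit. The deposited lymphocyte table holds genes down to a total of 0 counts, and the lowest total in the MAM table was 37. Reads that fit several copies were divided by estimation, which bears on Hspa1a and Hspa1b.

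Members were found by symbol, mapped from the Ensembl identifiers through GENCODE. Their symbols and the lists read beside them were chosen with earlier results of these data known. Genes were filtered with filterByExpr, leaving 13594 lymphocyte and 13759 MAM genes, scaled by the trimmed mean of M-values and fitted with the edgeR (4.0.16) quasi-likelihood test in R 4.3.3, all 12 or all 6 libraries in 1 fit with group as the sole term. P-values were adjusted by Benjamini-Hochberg over all genes tested and called under 0.1, the threshold of the study. The sum of Hspa1a and Hspa1b replaced both rows in a second fit. P-values measure the spread between pooled libraries, which may be partly technical. On simulated counts for LM CD49a- against MFL NK cells, 56% of 200 genes changed by 3 on the log2 scale were recovered, 29% of those changed by 2 and 0% of those changed by 1, in 12914 to 12936 genes. All 10 members were named, and of the other chaperones up to 5 called genes a comparison with the largest change. Alternatives were RLE size factors, no filter, DESeq2 (1.42.0), limma-voom with sample weights (limma 3.58.1), a replicate block, pseudogene counts added, fits of 2 groups, and each library left out. Leaving out both LM libraries numbered 2 or 3 was added after seeing the data.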

Additional observations from a re-analysis of the deposited data

How the results depend on the processing

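All comparisons of the Hspa1 pair between LM and MFL kept their direction in every alternative. Without a low-count filter 4 members were called in LM CD49a- against MFL NK cells in place of 2, with Dnajb1 and Dnaja1 added (adjusted p = 0.0863 and 0.0796, edgeR). DESeq2 called 7 in place of 4 in LM CD49a+ NK cells against ILC1. In the mean of LM against MFL, 5 members were called in place of 8 without both LM libraries numbered 2. In MAMs limma-voom with sample weights called 5 in place of 3. Leaving out 1 library gave 0 to 2 members in LM CD49a- and 1 to 2 in LM CD49a+ NK cells against MFL NK cells, 2 to 6 for the latter against ILC1, 3 to 8 in the mean of LM against MFL and 2 to 7 in MAMs. All genes called in LM CD49a- against MFL NK cells numbered 9 higher and 1 lower by edgeR, 100 and 61 by DESeq2, 102 and 2 by limma-voom and 133 and 25 without a filter. The alternatives thus differ in how many genes they call. For the other comparisons and the omitted libraries the share of all genes called is not given here. Their member counts cannot be set against a background.

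With 1 library left out, the log2 fold change of the summed pair was 3.59 to 4.08 for LM CD49a- and 2.60 to 3.73 for LM CD49a+ against MFL NK cells, 2.44 to 4.21 for the latter against ILC1, 3.11 to 4.00 in the mean of LM against MFL and −1.16 to −0.74 in MAMs. It was −0.79 to 0.62 in ILC1 against MFL NK cells and −1.35 to 0.42 for the interaction. The ILC1 difference of 0.16 also became −0.79 under limma-voom, and the interaction of −0.53 became 0.72. Limma-voom moved the median of all genes from −0.085 to −0.356 in LM CD49a- and from −0.04 to −0.269 in LM CD49a+ against MFL NK cells, and no filter to −0.145 and −0.117.

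Among single members, the signs that turned were of uncalled values, given here with the range over omitted libraries. Within MFL, ILC1 less NK cells ranged from −1.34 to 0.60 for Hspa1a, −0.54 to 0.63 for Hspa1b, −0.31 to 0 for Hspa8 and −0.06 to 0.09 for Dnajb1, limma-voom gave −1.23 for Hspa1a and −0.56 for Hspa1b, and Dnajb1 was 0.03 with RLE size factors and DESeq2 and 0.01 without a filter. Within LM, CD49a+ less CD49a- ranged from −1.10 to 0.06 for Hspa1b, −0.24 to 0.07 for Hsp90aa1, −0.56 to 0.28 for Hsph1, −0.02 to 0.32 for Hspd1 and −0.29 to 0.05 for Hspe1, and limma-voom gave 0.12 for Hsp90aa1 and 0.18 for Hsph1. Without both LM libraries numbered 2, Hsp90aa1 was 0, Hspd1 −0.11 and Hspe1 0.02, and without both numbered 3 Hsph1 was 0.03. The interaction ranged from −1.43 to 0.77 for Hspa1a, −1.29 to 0.30 for Hspa1b and −0.04 to 0.82 for Hsph1, and limma-voom gave 1.08 for Hspa1a, 0.54 for Hspa1b and 0.03 for Dnajb1. Dnaja1 in LM CD49a+ cells against ILC1 ranged from −0.17 to 0.24 and was −0.17 without both LM libraries numbered 2. In MAMs, Hspe1 ranged from −0.15 to 0.21 and Hsph1 from −0.55 to 0.06. The cause was not tested.

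Whether the replicate numbers pair the libraries is settled neither by the labels nor by these data. Correlations of same-numbered libraries' deviations from their group means were −0.126 to 0.073 in lymphocytes, against −0.095 to 0.087 for libraries of different numbers. In MAMs the ranges were −0.068 to 0.264 and −0.28 to 0.175. Such correlations over many genes cannot exclude a shared sorting or batch. With the replicate block, 5 members were called in MAMs in place of 3, with Hspa8 and Dnaja1 added (adjusted p = 0.0321 and 0.07), and the ILC1 against MFL NK difference became −0.17 for the sum, −0.41 for Hspa1a, −0.05 for Hspa1b and 0 for Dnajb1. In LM CD49a+ NK cells against ILC1 the block called 6 members in place of 4, and in the mean of LM against MFL 9 in place of 8. The share of all genes called with the block is not given here, so these counts cannot be set against a background.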

Other observations

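The member profiles differed in how closely they followed the summed Hspa1 pair across libraries of 1 site. Over the 6 LM lymphocyte libraries, Pearson's r of log2 CPM with the pair was 0.956 for Dnajb1, 0.874 for Hsph1, 0.754 for Hsp90aa1 and 0.703 for Dnaja1. It was 0.313 for Hspd1, 0.256 for Hspa8, −0.043 for Hspe1 and −0.087 for Hsp90ab1. Over the 6 MFL libraries the values were 0.447, 0.497, 0.255 and 0.457 for the first 4 genes and 0.384, 0.153, −0.576 and −0.11 for the last 4. These are descriptions over 6 libraries each, which share scaling and differ in depth.

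The 5 other genes with the most similar profile over all 12 lymphocyte libraries, among 9783 genes with a mean of at least 5 CPM, were Ubap2 (r = 0.878), Car2 (0.877), Cemip2 (0.863), Inpp5d (0.862) and Atp10a (0.859). The libraries fall apart by site, and over the 6 LM libraries alone r was 0.52, −0.261, −0.198, −0.353 and 0.173 in that order.

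Library number 2 was the highest of its group for all 10 members in both MAM groups. Among the lymphocytes it was the highest for 9 members in MFL NK and LM CD49a+ libraries and for 6 in ILC1 and LM CD49a- libraries, and Dnajb1, Hsp90aa1, Hspa8 and Hsph1 were highest there in all 4 groups. In each lymphocyte group, 7 of 10 members were lowest in library 3. The labels do not say that a number marks a shared day or batch.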
